A study of Mus musculus with 6 samples.

Results

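The IL1 family cytokines and receptors were examined in tracheal mesenchyme, before and after injury of the airway epithelium. Listed were 10 genes: the ligands *Il1a*, *Il1b*, *Il33* and *Il18*, the receptor antagonist *Il1rn*, and the receptors *Il1r1*, *Il1rap*, *Il1r2*, *Il1rl1* and *Il18r1*. Every array probe set that the platform annotation assigned to exactly 1 of these symbols was taken, which gave 16 probe sets of 9 genes, out of 45037 probe sets and 18193 genes in all. No probe set carried the symbol *Il1rl1*, the receptor for IL33 also known as ST2, so it is not analysed here. All mice were adult C57Bl/6 males, aged 8 to 12 weeks where the methods describe this injury model. The 3 control samples came from uninjured mice. The 3 samples at 48 h post injury (hpi) came from mice that had inhaled SO2 at 500 ppm for 4 h, a gas exposure that kills luminal cells of the airway lining. Each sample pooled 4 tracheas and was hybridized to 1 Affymetrix whole-genome mouse array, and the tissue was what remained once the epithelium had been loosened for 23 min in dispase and peeled away. Depletion of leukocytes is described for the epithelium and not for this tissue. Samples of a group are separate pools, so every p-value rests on the spread between pools. The limma fit shares part of this variance across probe sets.

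IL1 alpha and IL1 beta signal through the IL1 receptor type 1 (*Il1r1*) together with its co-receptor, the IL1 receptor accessory protein (*Il1rap*), and switch on NF-kappaB and inflammatory genes. IL1 beta and IL18 are made as inactive precursors that inflammasomes and caspase 1 cleave, whereas IL1 alpha and IL33 are alarmins that damaged cells release. Signaling is limited by the IL1 receptor antagonist (*Il1rn*), which occupies the receptor without activating it, and by the decoy receptor *Il1r2*, which binds ligand but lacks the signaling domain. In the airway, IL1 family cytokines are known as early signals of barrier damage that recruit and activate myeloid and innate lymphoid cells.

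Levels are log2 values from robust multi-chip averaging (RMA), and probe sets with a mean below 4.76, the 40th percentile of all means, are called dim. Over all probe sets, the correlation between 2 arrays was 0.987 to 0.994 within a group and 0.974 to 0.989 between groups, and no pair was identical. Fibroblast, cartilage and smooth muscle markers were bright in all samples, among them *Col1a2* (13.37 ± 0.25 in controls, SD, n = 3, on the log2 scale), *Acan* (13.07 ± 0.13) and *Acta2* (13.27 ± 0.31), which are mesenchymal genes. Transcripts of luminal secretory cells were bright as well. *Bpifa1* stood at 13.73 ± 0.28 and *Scgb1a1* at 12.88 ± 0.51 in controls, both genes of airway epithelium and glands.

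At 48 hpi, 4 of the 9 measured genes were higher and 0 were lower by limma, at an adjusted p of 0.05. The background over all 18193 genes was 4.97% higher and 1.24% lower, or 6.21% in either direction. The genes that rose were the ligand *Il1b*, the alarmin *Il33*, the signaling receptor *Il1r1* and the decoy receptor *Il1r2*. At an unadjusted p under 0.05 the same counts, 4 and 0, were found, where 14.6% of all genes were higher and 9.29% lower. With the replicate number as a block they were again 4 and 0, beside 8.77% of all genes higher and 4.64% lower in that fit. The same 4 genes had all 3 values at 48 hpi above all 3 controls, as had 17.2% of all genes, and 0 members had all values below, against 13.1% of all genes. The median log2 fold change was 0.20 over the 9 genes and -0.01 over all genes. Without both samples numbered 1, which leaves 2 samples a group, *Il1b* and *Il1r2* were the 2 genes still called.

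**Figure D1:**
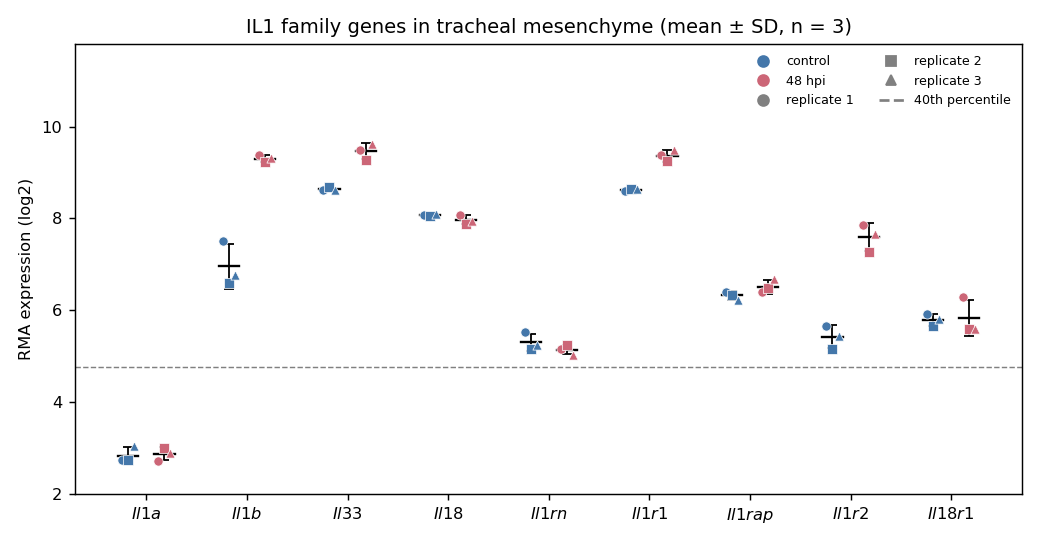
Vertical axis, RMA level in log2 units of the 9 measured IL1 family genes, which stand along the horizontal axis, in control (blue) and 48 hpi (red) mesenchyme, with 1 symbol per sample, the mean ± SD of 3 samples in black, and a dashed line at the 40th percentile of all probe set means (4.76). *Il1b*, *Il33*, *Il1r1* and *Il1r2* show separated groups, while *Il1a* lies below the line in all 6 samples.

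The largest rise of the 9 genes was in *Il1b*, the inflammasome-dependent ligand. Its values were 7.51, 6.60 and 6.77 in controls and 9.37, 9.22 and 9.31 at 48 hpi, all on the log2 scale. The injured samples lay within a narrow band well above every control, and control replicate 1 was the highest of the controls. The mean went from 6.96 ± 0.49 to 9.30 ± 0.08 (SD, n = 3), a log2 fold change of 2.34 ± 0.22 (SE) or 5.06-fold, with an adjusted p of 0.00268 and a 95% interval from 1.81 to 2.87. It passed in all 6 fits that left out 1 sample (adjusted p from 0.00111 to 0.0200). RefSeq lists a long non-coding gene, *Il1bos*, that overlaps *Il1b*, and where the probe set lies relative to it was not tested.

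*Il1a*, which lies directly beside *Il1b* in the order of protein-coding genes, was near the floor of the array in both groups. Its values were 2.74, 2.73 and 3.04 in controls and 2.72, 3.00 and 2.88 at 48 hpi, so the groups overlapped. The mean over all arrays stood at percentile 4.27 of all probe sets. The log2 fold change was 0.03 ± 0.12 (adjusted p = 0.923), with an interval from -0.26 to 0.32. At such a low signal RMA compresses differences, so this probe set could have missed a change of a faintly expressed transcript.

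*Il33*, the nuclear alarmin that signals through ST2, rose by less and with little spread. Control values were 8.62, 8.68 and 8.61, and those at 48 hpi were 9.50, 9.27 and 9.63. The 3 controls lay close together, and each injured sample was above them. The mean went from 8.64 ± 0.04 to 9.47 ± 0.18 (SD, n = 3), a log2 fold change of 0.83 ± 0.11 (SE) or 1.77-fold (adjusted p = 0.0102, interval 0.57 to 1.08). It passed in all 6 fits without 1 sample (0.00975 to 0.0482) but not without both samples numbered 1 (0.0661). Its interval and that of *Il1b* did not overlap.

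*Il18*, which shares the caspase 1 step with *Il1b*, was bright and almost level. Its values were 8.08, 8.06 and 8.10 in controls and 8.07, 7.88 and 7.95 at 48 hpi. The injured samples reached from below the controls into their range. The log2 fold change was -0.12 ± 0.09 (adjusted p = 0.519), and its interval, -0.32 to 0.09, ended below the interval of *Il33*.

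The promoters of the ligands that rose are shown beside that of *Il1a*, the neighbor that did not pass, because *Il1b* and *Il1a* are adjacent genes with different results. Each window runs from 250 bases before to 50 bases after an annotated start in RefSeq, on build GRCm38.p6, and is written 5′ to 3′ on the strand of the gene. RefSeq gives 2 starts for *Il33*, and the array cannot tell which was used. Capitals mark matches on either strand to a TATA box (TATAAA), a C/EBP motif (TTNNGNAA), an AP-1 motif (TGANTCA), a PU.1 core (GAGGAAG) and the kappaB consensus.
Il1b, chr2:129371090-129371389, minus strand: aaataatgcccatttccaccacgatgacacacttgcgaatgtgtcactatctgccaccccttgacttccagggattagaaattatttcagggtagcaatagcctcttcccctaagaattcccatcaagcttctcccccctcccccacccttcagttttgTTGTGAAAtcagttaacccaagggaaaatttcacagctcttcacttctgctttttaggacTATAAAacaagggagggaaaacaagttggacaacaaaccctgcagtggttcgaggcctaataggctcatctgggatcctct
Il1a, chr2:129309923-129310222, minus strand: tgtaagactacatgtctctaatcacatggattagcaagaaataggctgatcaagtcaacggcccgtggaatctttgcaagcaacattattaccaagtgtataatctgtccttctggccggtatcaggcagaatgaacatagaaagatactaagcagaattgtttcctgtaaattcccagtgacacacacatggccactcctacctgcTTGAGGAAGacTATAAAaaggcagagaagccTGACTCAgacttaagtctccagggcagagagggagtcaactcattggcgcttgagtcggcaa
Il33, upstream start, chr19:29924863-29925162, plus strand: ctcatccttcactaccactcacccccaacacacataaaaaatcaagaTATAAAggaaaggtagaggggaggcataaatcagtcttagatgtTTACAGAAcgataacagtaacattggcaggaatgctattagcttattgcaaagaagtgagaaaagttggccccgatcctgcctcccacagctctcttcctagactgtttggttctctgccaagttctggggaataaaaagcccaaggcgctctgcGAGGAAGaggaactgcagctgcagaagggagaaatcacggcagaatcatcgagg
Il33, downstream start, chr19:29945540-29945839, plus strand: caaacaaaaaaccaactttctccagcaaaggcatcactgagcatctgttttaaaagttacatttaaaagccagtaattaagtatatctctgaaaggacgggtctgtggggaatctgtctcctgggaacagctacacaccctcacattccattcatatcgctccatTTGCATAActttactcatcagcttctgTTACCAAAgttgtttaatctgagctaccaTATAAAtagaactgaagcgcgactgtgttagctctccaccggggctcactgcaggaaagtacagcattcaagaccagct

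The windows of *Il1b*, *Il1a* and the downstream start of *Il33* each hold TATAAA close before the start, beginning 31, 32 and 29 bases ahead of it. Over all 32851 promoter windows, 1.75% hold TATAAA on the gene's strand beginning 35 to 25 bases ahead, and 13.6% hold it anywhere on either strand. Each of the 4 windows also holds a C/EBP match, a motif found in 40.7% of all windows. The upstream window of *Il33* holds TATAAA too, but 203 bases ahead of the start, and a PU.1 core. *Il1a* alone of the 4 holds an AP-1 match, 12 bases before the start (7.81% of all windows), and its C/EBP match overlaps the PU.1 core, found in 13.6% of all windows. The kappaB consensus, present in 8.46% of all windows, is in none of the 4. A match here is a run of letters, and binding was not measured.

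Among the brakes on IL1 signaling, the decoy receptor *Il1r2* rose by 2.17 on the log2 scale. It was 5.65, 5.16 and 5.44 in controls and 7.85, 7.27 and 7.66 at 48 hpi. Every injured sample stood well above every control, and in both groups replicate 1 was the highest and replicate 2 the lowest. The mean went from 5.42 ± 0.25 to 7.59 ± 0.30 (SD, n = 3), a log2 fold change of 2.17 ± 0.18 (SE) or 4.51-fold (adjusted p = 0.00154, interval 1.74 to 2.60). It passed in all 6 fits without 1 sample (0.00282 to 0.0131). With the replicate block its SE was 0.08 and its adjusted p 6.11e-05.

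The probe sets of the receptor antagonist *Il1rn* disagreed. The one with the highest mean, 1423017_a_at, which stands for the gene in all counts here, was 5.52, 5.16 and 5.23 in controls and 5.15, 5.23 and 5.03 at 48 hpi. These groups overlapped, with a log2 fold change of -0.17 ± 0.12 (adjusted p = 0.498, interval -0.45 to 0.11). The second, 1451798_at, was 4.66, 4.42 and 4.44 in controls, with a mean below the dim bound of 4.76, and 5.78, 5.39 and 5.92 at 48 hpi. All its injured samples were above all controls, and the log2 fold change was 1.19 ± 0.15 or 2.28-fold (adjusted p = 0.00834, interval 0.84 to 1.55). It passed in all 6 fits without 1 sample (0.00551 to 0.0431), with the replicate block (0.00209) and without both samples numbered 1 (0.0414). The third, 1425663_at, was dim, with a mean at percentile 19.7, and gave 0.20 ± 0.10 (adjusted p = 0.330). The means of the first and second over all arrays lay at percentiles 47.8 and 45.8, so the choice of the probe set that stands for *Il1rn* rests on a small difference. With the mean of all its probe sets *Il1rn* rose by 0.41 on the log2 scale (adjusted p = 0.0479). Of 16 probe sets of the 9 genes 5 were called higher and 0 lower in all, against 3.49% and 0.846% of all probe sets.

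**Figure D2:**
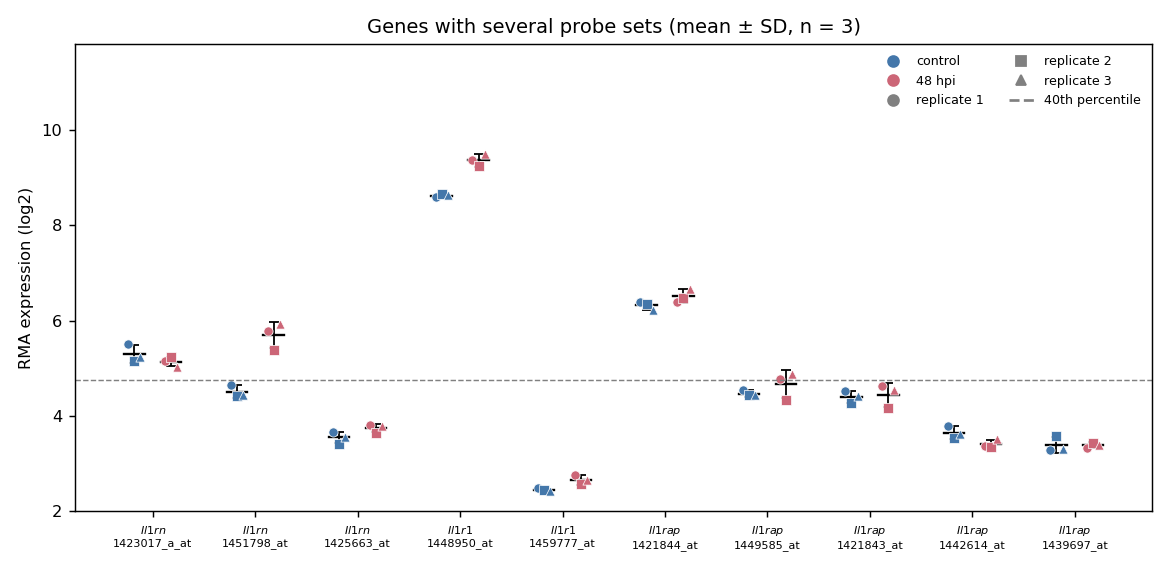
Vertical axis, RMA level in log2 units of each probe set of the 3 genes that have several, which stand along the horizontal axis, in control (blue) and 48 hpi (red) samples, with the mean ± SD of 3 samples and a dashed line at the 40th percentile of all probe set means. The *Il1rn* probe set 1451798_at rises from 4.51 to 5.70 while 1423017_a_at goes from 5.30 to 5.14.

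*Il1r1*, the receptor that transmits the IL1 signal, rose modestly from a high level. Its bright probe set, 1448950_at, was 8.59, 8.65 and 8.63 in controls and 9.37, 9.24 and 9.49 at 48 hpi. The controls were almost identical and all injured samples were above them. The mean went from 8.62 ± 0.03 to 9.36 ± 0.13 (SD, n = 3), a log2 fold change of 0.74 ± 0.09 (SE) or 1.67-fold (adjusted p = 0.00815, interval 0.52 to 0.96). It passed in all 6 fits without 1 sample (0.0150 to 0.0402) but not without both samples numbered 1 (0.0570). The other probe set of *Il1r1*, 1459777_at, lay at percentile 0.799 of all means and did not pass (0.21 ± 0.09, adjusted p = 0.247). The interval of *Il1r1* did not overlap that of the decoy *Il1r2*, which is the next gene to it on the chromosome.

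*Il1rap*, the co-receptor shared by the IL1, IL33 and IL36 receptors, did not pass in any of its 5 probe sets. The brightest, 1421844_at, was 6.40, 6.34 and 6.22 in controls and 6.39, 6.48 and 6.67 at 48 hpi. These groups overlapped, and the log2 fold change was 0.20 ± 0.10 (adjusted p = 0.370, interval -0.05 to 0.44). The other 4 probe sets were dim, with both group means below 4.76, and had log2 fold changes from -0.24 to 0.19. *Il18r1*, the ligand-binding receptor for IL18, was 5.91, 5.66 and 5.80 in controls and 6.29, 5.59 and 5.60 at 48 hpi. Replicate 1 was the highest in both groups and the groups overlapped, with a log2 fold change of 0.04 ± 0.20 (adjusted p = 0.945, interval -0.43 to 0.50).

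**Figure D3:**
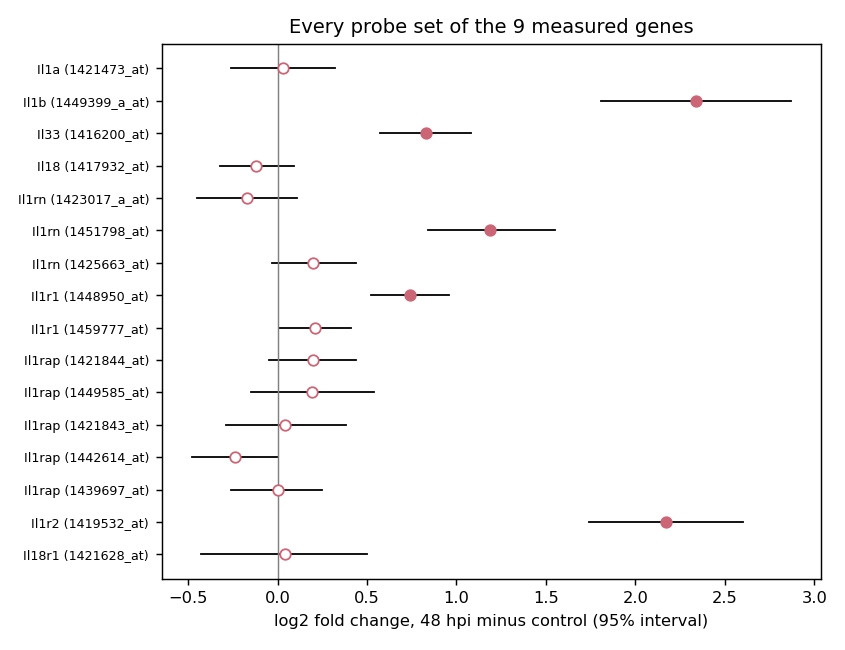
Horizontal axis, log2 difference of 48 hpi minus control for the 16 probe sets of the 9 measured genes listed along the vertical axis, with the 95% interval of the limma fit. Filled points passed an adjusted p of 0.05. *Il1b* (2.34) and *Il1r2* (2.17) lie apart from *Il33* (0.83) and *Il1r1* (0.74), and the 3 probe sets of *Il1rn* spread from -0.17 to 1.19.

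The receptor genes form a run on the chromosome in which *Il1r2*, *Il1r1*, *Il1rl2*, *Il1rl1*, *Il18r1* and *Il18rap* follow each other with no other protein-coding gene between them. Along this order the log2 fold changes were 2.17 for *Il1r2*, 0.74 for *Il1r1* and 0.49 for *Il1rl2*, the IL36 receptor. After the unmeasured *Il1rl1*, they were 0.04 for *Il18r1* and 0.38 for *Il18rap*, the IL18 co-receptor. *Il1rl2* just missed the threshold (adjusted p = 0.0520) and passed with the replicate block (0.0373), and *Il18rap* did not pass (0.142). *Il1rn* closes another run, after the IL36 ligand genes and *Il1f10*, none of which passed. The promoters of the 2 receptor genes that rose are shown because they are neighbors that rose by different amounts. Marks are as above.
Il1r2, chr1:40085843-40086142, plus strand: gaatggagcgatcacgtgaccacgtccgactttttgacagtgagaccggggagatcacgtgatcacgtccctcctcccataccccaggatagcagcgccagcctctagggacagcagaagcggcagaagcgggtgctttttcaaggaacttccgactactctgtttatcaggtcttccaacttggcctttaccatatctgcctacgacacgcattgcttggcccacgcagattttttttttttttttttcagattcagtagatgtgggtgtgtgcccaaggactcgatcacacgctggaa
Il1r1, upstream start, chr1:40224830-40225129, plus strand: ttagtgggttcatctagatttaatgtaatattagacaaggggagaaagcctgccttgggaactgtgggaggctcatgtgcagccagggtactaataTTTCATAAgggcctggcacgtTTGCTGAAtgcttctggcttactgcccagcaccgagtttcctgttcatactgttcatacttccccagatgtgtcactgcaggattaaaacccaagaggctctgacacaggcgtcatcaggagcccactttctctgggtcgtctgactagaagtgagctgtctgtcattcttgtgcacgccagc
Il1r1, downstream start, chr1:40266336-40266635, plus strand: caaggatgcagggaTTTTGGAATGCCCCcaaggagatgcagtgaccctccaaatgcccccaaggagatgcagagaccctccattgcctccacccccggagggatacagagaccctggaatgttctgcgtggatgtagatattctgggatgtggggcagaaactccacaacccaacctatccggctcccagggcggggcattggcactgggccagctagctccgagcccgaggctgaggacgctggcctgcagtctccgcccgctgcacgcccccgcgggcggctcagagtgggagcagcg

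The *Il1r2* window holds none of the 5 motifs searched. The upstream *Il1r1* window holds 2 C/EBP matches. The downstream one holds the 1 kappaB match found among all 15 windows of the 9 measured genes, 232 bases before the start, where it overlaps a C/EBP match.

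Beyond the listed members, no further IL1 family gene passed. There were 11 measured ligands, receptors and regulators, among them the IL36 cytokines. Of these, 0 rose and 0 fell by limma, against 4.97% and 1.24% of all genes. At an unadjusted p under 0.05, 3 were higher and 0 lower (14.6% and 9.29% of all genes), and *Il1rl2* rose with the replicate block. Unadjusted, *Il18bp*, a secreted inhibitor of IL18 named after its values were seen, was higher (0.31, adjusted p = 0.135), as were *Il1rl2* and *Il18rap*. The median log2 fold change of the list was 0.03. *Sigirr*, an inhibitory receptor of the family, gave -0.07 ± 0.14 (adjusted p = 0.832). The IL36 ligands *Il1f6*, *Il1f8* and *Il1f9*, named after their values were seen, gave -0.13, -0.24 and 0.25.

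The list of inflammasome and cytokine processing genes rose in part. Of 14 measured inflammasome and processing genes 4 rose and 0 fell, against a background of 4.97% and 1.24% of all genes, with a median of 0.40. *Naip2*, a sensor of bacterial ligands, rose by 1.29 ± 0.18 (adjusted p = 0.0112), from a control mean of 3.87 that is below the dim bound of 4.76. *Pycard*, the adaptor protein that assembles inflammasomes, was 8.45, 8.09 and 8.30 in controls and 9.64, 9.02 and 9.61 at 48 hpi. It rose by 1.14 ± 0.18 (adjusted p = 0.0201), although 1 of its 3 probe sets passed. *Prtn3*, a neutrophil serine protease, rose by 0.92 ± 0.13 (0.0143), also from a control mean below that bound (4.66). The protease genes *Elane* (-0.01) and *Ctsg* (0.14), named after their values were seen, were dim in both groups and did not pass. *Mefv*, which encodes pyrin and was named after its values were seen, rose by 0.84 (0.0291). *Nlrp3*, the sensor best known for IL1 beta release, was 6.00, 6.10 and 5.04 in controls and 6.72, 6.68 and 6.56 at 48 hpi, and *Casp1* 5.70, 5.39 and 5.47 against 6.40, 5.71 and 5.86. Neither passed without the block (adjusted p = 0.109 and 0.237) and both did with it. With the block 8 genes of the list rose in all, *Casp4* and *Gsdmd* among them, beside 8.77% of all genes. *Nlrp3*, *Casp1*, *Casp4* and *Gsdmd* were named after their values were seen. Leaving out 48 hpi replicate 1, 48 hpi replicate 3, control replicate 2 or control replicate 3 kept 1 of the 4 calls in each case, *Naip2*. Leaving out both samples numbered 1 kept 2, *Mefv* and *Prtn3*, while *Naip2* (adjusted p = 0.0712) and *Pycard* (0.0667) did not pass.

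No gene of the shared signaling machinery below the receptors passed. Of 16 measured genes 0 rose and 0 fell, against 4.97% and 1.24% of all genes. At an unadjusted p under 0.05, 4 were higher and 0 lower (14.6% and 9.29% of all genes), and the median was 0.05. The kinase gene *Irak1* gave 0.05 ± 0.09 (adjusted p = 0.789) and *Tab2*, which links TRAF6 to the kinase TAK1, gave -0.22 ± 0.10 (0.289). *Ube2n*, a ubiquitin-conjugating enzyme named after its values were seen, gave 0.54 (0.157), and passed with the replicate block (0.0340) and without control replicate 2. The adaptor gene *Myd88*, named after its values were seen, gave 0.34 (0.182).

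Of 22 measured genes known to be induced by IL1, 7 rose and 0 fell, against 4.97% and 1.24% of all genes. The median was 0.49. The neutrophil chemokine gene *Cxcl2* was 8.80, 7.34 and 6.88 in controls and 10.60, 10.33 and 10.69 at 48 hpi, a log2 fold change of 2.87 ± 0.45 (adjusted p = 0.0177). The monocyte chemokine genes *Ccl7* (2.84 ± 0.54, adjusted p = 0.0348) and *Ccl2* (2.46 ± 0.49, 0.0391) rose too. So did *Saa3*, *Cxcl5*, *Mmp3* and *Vcam1*, by 1.02 to 2.38, all named after their values were seen. The feedback inhibitors *Nfkbia* (-0.29) and *Tnfaip3* (-0.09) and the cofactor *Nfkbiz* (-0.25), also named after their values were seen, did not pass. Control replicate 1 was the highest control for *Cxcl2*, *Ccl2* and *Ccl7*, as it was for *Il1b*. *Il6*, likewise chosen once its values were known, was 9.62, 7.84 and 5.01 in controls and 9.36, 9.48 and 8.93 at 48 hpi. Its controls spanned a wide range that held every injured value, and it did not pass (1.77, adjusted p = 0.401). Of the 7 calls 2, those of *Saa3* and *Vcam1*, remained without control replicate 2. In each of 4 further fits, leaving out control replicate 3, 48 hpi replicate 1, 48 hpi replicate 3 or both samples numbered 1, 3 remained. Without 48 hpi replicate 2 the 7 remained and *Lcn2*, an iron-binding acute phase gene picked after its value was known, was called as well (1.80, adjusted p = 0.00317).

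On the list around IL33 and type 2 immunity 7 of 16 measured genes rose and 0 fell, against 4.97% and 1.24% of all genes. The median was 0.14. *Arg1*, an arginase of alternatively activated macrophages, was 5.81, 5.39 and 5.82 in controls and 10.46, 10.05 and 10.76 at 48 hpi, a log2 fold change of 4.75 ± 0.20 (adjusted p = 0.000136). *Chil3*, a chitinase-like protein, rose by 5.79 ± 0.73 from a mean below the dim bound (0.00820), and the eosinophil chemokine gene *Ccl24* by 2.06 ± 0.37 (0.0298). The others that rose, named after their values were seen, were the receptor genes *Il4ra* (1.38) and *Il13ra1* (0.87) and the chemokine genes *Ccl17* (1.75) and *Ccl22* (0.58). *Il4*, *Il5*, *Il9* and *Il13*, named after their values were seen, had means below 4.76 in both groups, with log2 fold changes from -0.03 to 0.11. The macrophage gene *Retnla*, also named after its values were seen, gave -0.72 and did not pass (0.170), but fell with the replicate block, as did *Rora* (-0.41), a transcription factor of innate lymphoid cells that was likewise picked after its value was known. Leaving out control replicate 2, control replicate 3, 48 hpi replicate 1 or 48 hpi replicate 3 kept 2 of the 7 calls in each case. *Arg1* and *Chil3* passed in all 6 fits without 1 sample. Leaving out both samples numbered 1 also kept 2, *Arg1* and *Il13ra1*, while *Chil3* did not pass (adjusted p = 0.0582). Leaving out control replicate 1 kept 4.

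The list around IL18, IL12 and interferon gamma showed no called gene. Of 11 measured genes 0 rose and 0 fell, against 4.97% and 1.24% of all genes, with a median of -0.05. Counts were also 0 and 0 at an unadjusted p under 0.05 (14.6% and 9.29% of all genes). With the replicate block they were again 0 and 0 (8.77% and 4.64% of all genes). Of the 11 genes, 9 had means below 4.76 in both groups, as had 4751 of all 18193 genes. *Ifngr1* gave -0.05 ± 0.09 (adjusted p = 0.812) and the interferon-induced chemokine gene *Cxcl10* gave 0.63 ± 0.40 (0.441). Leaving out control replicate 1 gave 1 call, for *Cxcl10* (adjusted p = 0.0456), and leaving out both samples numbered 1 gave 1 rise, again for *Cxcl10*.

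**Figure D4:**
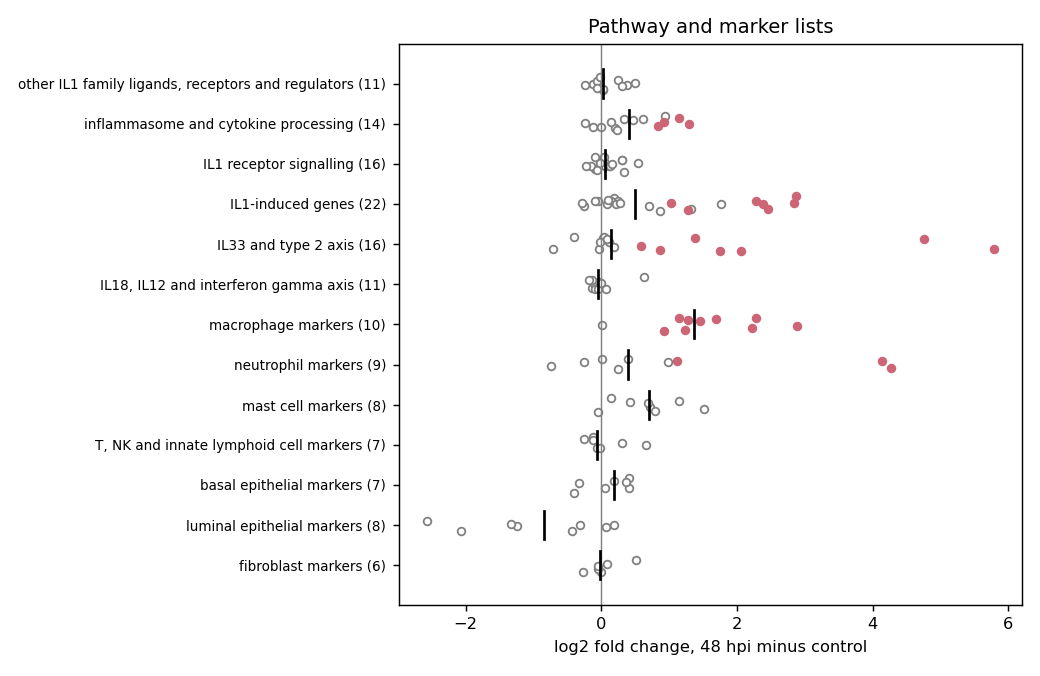
Horizontal axis, log2 difference of 48 hpi minus control for each measured gene of the lists named along the vertical axis. Filled points passed an adjusted p of 0.05 and the vertical tick is the list's median, which goes from 1.37 (macrophage markers) down to -0.84 (luminal epithelial markers), and the lists of IL1 receptor signaling (0.05) and of IL18, IL12 and interferon gamma (-0.05) hold no called gene.

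The marker lists of other cell types did not all move alike. Of 10 measured macrophage markers 9 rose, against 4.97% of all genes, with a median of 1.37. The rises were led by *Itgam* (2.88 ± 0.17), which had a control mean below the dim bound, and *Cd68* (2.28 ± 0.10). The levels of the 10 markers summed off the log scale were 2876 to 3115 in controls and 6925 to 8265 at 48 hpi. Without both samples numbered 1, 7 of the 9 rises remained. *Cx3cr1*, the 1 marker that did not pass, gave 0.01. Of 9 measured neutrophil markers 3 rose, against 4.97% of all genes, with *S100a8* at 4.27 ± 0.77 and *S100a9* at 4.13 ± 0.72. *Cxcr2* and *Mmp8*, named after their values were seen, had means below 4.76 in both groups. The summed level of neutrophil markers was 11726 to 14903 in controls and 9349 to 14210 at 48 hpi. Most of it came from *Ltf*, the brightest of these genes in every sample. *Ltf* stood at 13.66 in controls, where *Camp*, also named after its values were seen, stood at 4.84. Which cells gave the *Ltf* signal was not tested, so this sum cannot be read as a level of neutrophils. *Ltf* (-0.75, adjusted p = 0.149) and *Ngp* (-0.26, 0.167), granule protein genes named after their values were seen, had all injured values below all controls (13.1% of all genes). Both were lower at an unadjusted p under 0.05, as were 9.29% of all genes. Neither passed, but *Ltf* did without 48 hpi replicate 1 (-1.01, adjusted p = 0.0445). *S100a8* and *S100a9* did not pass without control replicate 3, 48 hpi replicate 1, 48 hpi replicate 3 or both samples numbered 1, where 1 of the 3 calls remained, *Csf3r*, and *S100a8* did not pass without 48 hpi replicate 2 either (0.0518). More myeloid cells and more RNA per cell cannot be told apart in these bulk samples, and the part of these cells in the rises of *Il1b*, *Il1r2*, *Il33* and *Il1r1* was not tested.

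Of 8 mast cell markers and of 7 T, NK and innate lymphoid cell markers 0 rose and 0 fell by limma, against 2 and 1 that were higher at an unadjusted p under 0.05, as were 14.6% of all genes, and 4 and 1 with the replicate block (8.77% of all genes). Named after their values were seen, the 4 were *Cpa3*, *Mcpt4*, *Fcer1a* and *Hdc*, and the 1 was *Thy1*. Calls also appeared without control replicate 1, for *Hdc* (0.89, adjusted p = 0.0470) and *Thy1* (0.85, 0.0249), and without control replicate 2, for *Cpa3* (1.77, 0.0195) and *Fcer1a* (1.94, 0.0119). The summed levels were 331 to 783 in controls and 660 to 879 at 48 hpi for mast cells. For lymphoid cells they were 777 to 1141 and 1214 to 1357. Most of the lymphoid sum came from *Thy1*. The median log2 fold change of that list was -0.07, and 5 of its 7 genes were below 0. *Cpa3*, a mast cell protease, gave 1.15 ± 0.49 (adjusted p = 0.267) and *Thy1*, which fibroblasts express too, gave 0.66 ± 0.17 (0.0883). Of 7 basal epithelial markers 0 passed in either direction, with 1 higher at an unadjusted p under 0.05, a share like the 14.6% of all genes, and 0 calls with the block. Their summed level was 761 to 1221 in controls and 904 to 1529 at 48 hpi, and *Epcam* gave 0.05 ± 0.11 and *Cdh1* -0.41 ± 0.45. Of 8 luminal markers 0 passed. At an unadjusted p under 0.05, 3 were lower (9.29% of all genes), and 3 fell with the block (4.64% of all genes). *Scgb1a1* gave -2.57 ± 0.82 and *Bpifa1* -1.24 ± 0.55. Without 48 hpi replicate 1, *Scgb1a1* (-3.57, adjusted p = 0.0120) and *Scgb3a2* (-2.99, 0.0477) were called lower, and without both samples numbered 1 *Scgb1a1* (-3.28, 0.0171) and *Sec14l3* (-1.43, 0.00523) were, with *Scgb3a2* and *Sec14l3* named after their values were seen. Their summed level was 22952 to 37667 in controls and 4141 to 25181 at 48 hpi.

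Markers of resident mesenchymal and vascular cells were mostly not called. Of 6 fibroblast markers 0 passed in either direction, with *Dcn* lower at an unadjusted p under 0.05 and *Col1a1*, named after its values were seen, higher with the block (0.51). Their summed level was 31965 to 37490 in controls and 32006 to 37354 at 48 hpi, with *Dcn* at -0.27 ± 0.10 and *Col1a2* at 0.08 ± 0.16. Of 5 endothelial markers *Tie1* (0.65 ± 0.10) and *Cdh5* (0.71 ± 0.14) rose, against 4.97% of all genes. Neither passed without control replicate 3, 48 hpi replicate 1, 48 hpi replicate 2 or both samples numbered 1. *Cdh5* also did not pass without control replicate 2 (adjusted p = 0.0850) or 48 hpi replicate 3 (0.100). Of 5 chondrocyte markers 0 passed. At an unadjusted p under 0.05, 3 were lower (9.29% of all genes), and 2 fell with the block (4.64% of all genes). *Acan* gave -0.23 ± 0.10 and *Col2a1* -0.46 ± 0.36. Of 4 smooth muscle markers 0 passed, also unadjusted and with the block, with *Acta2* at 0.17 ± 0.17 and *Myh11* at -0.02 ± 0.36.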

How the data were processed

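The authors hybridized amplified RNA of each of the 6 samples to 1 Affymetrix whole-genome mouse array and computed expression by robust multi-chip averaging (RMA), with RMA, Partek 6.5 and Affymetrix Expression Console 1.1 named in the submitters' processing notes. The deposited table holds 1 log2 RMA value for each probe set in each array. RMA equalizes total brightness between arrays and compresses folds of dim probe sets. The number of arrays limits the precision.

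Of 45101 probe sets, 64 controls were left out. The platform annotation gave 1 symbol to 34945 of the 45037 tested, several to 932 and none to 9160. Of these symbols 34741 were updated through Entrez identifiers to the GRCm38.p6 RefSeq table. A gene took its probe set with the highest mean. Groups were compared with limma 3.58.1 in R 4.3.3 (lmFit, eBayes, a single group term, two-sided tests, Benjamini-Hochberg over all probe sets, adjusted p 0.05, 4 residual and 3.21 prior degrees of freedom). The study's methods name an ANOVA over epithelium and mesenchyme arrays, and epithelium is not analysed here. The fit was tested on simulated data in which arrays were drawn independently, so effects shared by a replicate number were not simulated. Probe sets with a mean under 4.76, the 40th percentile, are called dim.

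After removal of group means, samples with the same replicate number correlated across probe sets at 0.62, 0.36 and 0.34, each best with its own number. The numbers are in the labels, which do not say what they share. The block fit has 2 residual degrees of freedom.

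Members and lists were chosen with earlier results of these data known. Named were all members. From each pathway list up to 3 called rises and 3 called falls were named, from each marker list up to 2 of each, and where none was called the 2 genes with the highest mean. Alternatives were the block, fits without single samples or without both numbered 1, renewed normalization, a filter on dim probe sets, another prior, an equal-variance test and other summaries of a gene's probe sets.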

Additional observations from a re-analysis of the deposited data

How the results depend on the processing

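The count of 4 genes higher and 0 lower stayed within 1.5 times, and the same 4 genes were called, with the replicate block, after renewed quantile normalization, with array medians set equal, without dim probe sets (8 genes tested, since *Il1a* dropped out) and with an intensity trend and robust prior. In fits without 1 sample the counts ranged from 4 to 4 higher and from 0 to 0 lower. Without both samples numbered 1 they were 2 higher, *Il1b* and *Il1r2*. With the equal-variance test, which shares no variance across probe sets, they were 0 higher, with adjusted p from 0.0709 to 0.0871 for the 4 genes and 4 past an unadjusted p of 0.05. That test called 41 genes higher and 4 lower in the whole table, against 904 and 226 with limma. On the lists it left 1 of 9 macrophage marker calls (*Cd68*), 1 of 7 type 2 calls (*Arg1*), 0 of 7 IL1-induced calls, 0 of 4 inflammasome calls, 0 of 3 neutrophil marker calls and 0 of 2 endothelial marker calls. With the mean of all probe sets of a gene, and with the probe set of largest spread (an alternative chosen after seeing the data), *Il1rn* turned from -0.17 to 0.41 and to 1.19. *Il1a* turned to -0.02 without control replicate 1, to -0.02 without control replicate 2 and to -0.03 without 48 hpi replicate 2, and ranged from -0.03 to 0.13 in fits without 1 sample. *Il18r1* turned to -0.03 without control replicate 2, to -0.20 without 48 hpi replicate 1 and to -0.13 without both samples numbered 1, with a range from -0.20 to 0.16 in fits without 1 sample. Neither *Il1a* nor *Il18r1* passed in any fit.

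Over the whole table the fit with the replicate block called 1596 genes higher and 845 lower. Fits without 1 sample called 349 to 647 higher and 17 to 98 lower, and that without both samples numbered 1 called 413 and 76. Signal near the floor limits *Il1a*, the dim *Il1rap* probe sets and most genes around IL18 and interferon gamma.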
